A study of Homo sapiens with 6 samples.

Results

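ChIRP-seq peaks of the lncRNA CRLM1 were examined at 60 genes of the Wnt and beta-catenin pathway. The genes were chosen by name: 18 Wnt ligands, 15 receptors and co-receptors, 13 proteins of the intracellular relay and the destruction complex, 5 nuclear factors, 6 secreted inhibitors and 3 proteins of membrane feedback. Each name matched 1 protein-coding gene of GENCODE release 44, out of 20033 such genes on chromosomes 1 to 22, X and Y. The window of a gene is its body with 5 kb upstream of its start, and a gene was counted for any peak sharing at least 1 bp with that window. The body spans every annotated transcript of the gene, so it can be longer than the main transcript.

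The cells were HCT116, an established line of human colorectal carcinoma, and they were crosslinked with formaldehyde before the pull-down. Biotinylated oligonucleotides antisense to CRLM1, annotated as LINC01767, gave the CRLM1_IP libraries. Oligonucleotides against LacZ, a gene of E. coli that human cells lack, gave the LacZ libraries, and sheared chromatin without pull-down gave the Input libraries. Each of these 3 groups had 2 libraries, numbered as replicates, and the labels name no change in the level of CRLM1 in any group. Peaks had been called for CRLM1_IP against Input and against LacZ of the same replicate number, which gave 4 lists. They are named here by replicate and control: R1-Input with 9331 peaks, R1-LacZ with 10310, R2-Input with 16777 and R2-LacZ with 363. The Input and LacZ lists of a replicate share their pull-down library. The lists carry no read counts, so the depth of the libraries is unknown. They hold 1 list per replicate and control, so all comparisons here are descriptions without a test.

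In the canonical Wnt pathway, a secreted Wnt ligand binds a Frizzled receptor and its co-receptor LRP5 or LRP6 at the cell surface. Dishevelled proteins (DVL) pass the signal on and disable the destruction complex of APC, AXIN, casein kinase 1 and GSK3, which otherwise marks beta-catenin (CTNNB1) for degradation through the ubiquitin ligase subunit BTRC. Stabilised beta-catenin enters the nucleus and works with TCF and LEF transcription factors. The pathway maintains stem cells of the intestinal crypt and is switched on in most colorectal carcinomas, often through loss of APC, and HCT116 cells are known to carry an activating mutation of CTNNB1.

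Peaks of both replicates against the same control fell on 3 of 60 members (5%), beside 7.9% of all protein-coding genes and 6.51 members from genes of like length. The 3 were GSK3B, the kinase that phosphorylates beta-catenin, TNIK, a kinase that acts on TCF7L2 in the nucleus, and DKK2, a secreted ligand of LRP5 and LRP6. All 3 were called against Input, DKK2 only through sites outside its main transcript. The sequences of 4 of their peaks are given as the DNA behind these calls, read from the plus strand of GRCh38, whole up to 300 bases and otherwise the central 300 bases. The capitals mark CTTTGAT, the core letters of the TCF and LEF motif, or its reverse complement ATCAAAG.
GSK3B R2-Input, chr3:119997330-119997629: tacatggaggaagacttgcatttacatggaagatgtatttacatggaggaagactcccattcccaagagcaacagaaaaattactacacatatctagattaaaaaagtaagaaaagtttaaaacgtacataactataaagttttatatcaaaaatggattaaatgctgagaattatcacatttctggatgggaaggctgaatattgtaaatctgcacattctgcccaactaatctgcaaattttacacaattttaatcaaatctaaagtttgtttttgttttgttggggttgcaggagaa
TNIK R1-Input, chr3:171396056-171396355: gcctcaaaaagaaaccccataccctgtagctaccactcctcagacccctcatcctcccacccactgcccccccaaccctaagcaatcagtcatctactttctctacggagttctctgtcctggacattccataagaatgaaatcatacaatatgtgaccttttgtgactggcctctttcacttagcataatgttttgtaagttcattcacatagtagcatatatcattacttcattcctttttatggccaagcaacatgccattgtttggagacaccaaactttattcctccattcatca
TNIK R2-Input, chr3:171084406-171084683: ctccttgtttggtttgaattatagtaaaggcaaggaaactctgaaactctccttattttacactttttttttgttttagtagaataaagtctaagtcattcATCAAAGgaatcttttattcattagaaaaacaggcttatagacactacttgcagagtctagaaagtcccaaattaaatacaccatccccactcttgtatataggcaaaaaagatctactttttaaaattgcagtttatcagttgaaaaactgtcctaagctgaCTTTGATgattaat
DKK2 R1-Input, chr4:107140274-107140531: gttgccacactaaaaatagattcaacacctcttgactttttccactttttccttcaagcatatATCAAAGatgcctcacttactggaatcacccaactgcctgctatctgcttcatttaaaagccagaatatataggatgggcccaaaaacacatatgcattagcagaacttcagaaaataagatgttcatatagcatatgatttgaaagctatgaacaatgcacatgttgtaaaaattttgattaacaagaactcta

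The printed part of the GSK3B site has a GC content of 31.7%, and that of the TNIK site of replicate 1 has 42.7%. The motif letters occur once in the printed DKK2 site of replicate 1 and in both orientations in the printed TNIK site of replicate 2. They were not found in the other TNIK site of R2-Input, which is not printed, so 1 of 2 held them. They are absent from the GSK3B site of replicate 2 and from the TNIK site of replicate 1 as printed. Neither the GSK3B site of R1-Input nor the DKK2 sites of R2-Input, which are not printed, held them in their central 300 bp. Over all peaks, 5.66% in R1-Input and 5.6% in R2-Input held them.

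Besides the GSK3B peak of replicate 2, 2 member peaks had a score in the top 10% of their list: one upstream of WNT11, a ligand of mainly noncanonical signalling, and one in an intron of APC, the scaffold of the destruction complex. The WNT11 peak is printed as the stronger of the 2 member peaks upstream of a gene.
WNT11 R1-LacZ, chr11:76211417-76211716: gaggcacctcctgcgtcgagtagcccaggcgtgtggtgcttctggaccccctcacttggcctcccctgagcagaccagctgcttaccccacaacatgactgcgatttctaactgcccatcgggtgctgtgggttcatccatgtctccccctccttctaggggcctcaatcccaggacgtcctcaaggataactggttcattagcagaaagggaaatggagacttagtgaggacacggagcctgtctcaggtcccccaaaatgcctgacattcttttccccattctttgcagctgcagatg

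The members were first counted in each list, to see whether CRLM1 peaks gathered at this pathway. In R1-Input, 3 of 60 members had a peak (5%, exact 95% interval 1.04 to 13.9%), beside 13.1% of all protein-coding genes. In R1-LacZ, 11 members had a peak (18.3%, 9.52 to 30.4%), beside 20.2% of all protein-coding genes. In R2-Input it was 12 members (20%, 10.8 to 32.3%), beside 22.2%. In R2-LacZ it was 0 of 60, which allows up to 5.96%, beside 1.02%. The intervals are Clopper-Pearson intervals and cover counting error only.

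Long genes collect more peaks, and the members are longer than most genes, so each member was set against the 200 other protein-coding genes nearest to it in length. Genes of like length gave 10.4 members in R1-Input, where 3 were found, and their share of 17.4% lay above the counting interval of the members. They gave 14.5 in R1-LacZ (11 found), 16.6 in R2-Input (12 found) and 0.85 in R2-LacZ (0 found), and these lay within the intervals. Each of the 4 counts was below the number from genes of like length, though in R2-LacZ only a count of 0 could be.

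Under a stricter score the direction turned in a pair of lists. Among the strongest 25% of peaks of R1-LacZ, 7 members had a peak (11.7%, beside 6.4% of all protein-coding genes), and genes of like length gave 4.31, so the ratio went from 0.76 to 1.62. These were WNT5B, WNT11, FZD5, ROR1, TCF7L1, TCF7L2 and DKK2. Among the strongest 25% of R2-Input, 7 members had a peak (11.7%, beside 8.04%), against 5.96 from genes of like length, and the ratio went from 0.724 to 1.17. These were WNT5B, LRP5, ROR2, APC, BTRC, GSK3B and DKK2, so 2 of the 7 genes were common to both lists. The counting interval of 4.82 to 22.6% for 7 members held both numbers from genes of like length. In R1-Input, 0 members had such a peak, beside 4.27% of protein-coding genes and 3.2 from genes of like length.

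**Figure D1:**
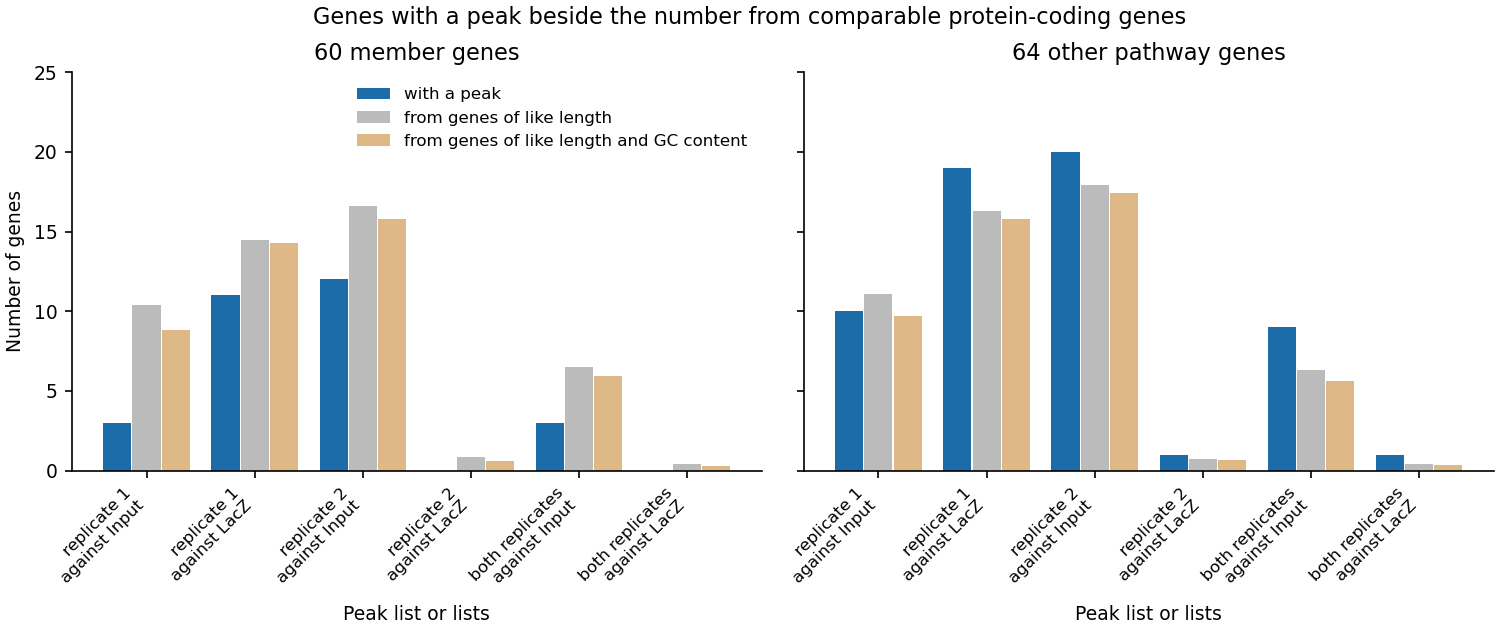
Number of genes with a peak (blue bars, vertical axis) in each list and in both replicates against the same control, for the 60 members (left) and the 64 other genes of the pathway (right). Grey bars give the number from protein-coding genes of like length and tan bars that from genes of like length and GC content. For the members every blue bar is lower than both, with 3 beside 10.4 and 8.8 in R1-Input. With grey bars of 0.85 in R2-LacZ and 0.425 in both replicates against LacZ, only 0 could be lower.

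Both replicates against Input had a peak in the 3 members named above. Both replicates against LacZ had a peak in 0 members, beside 0.559%, and genes of like length gave 0.425. When a peak against either control was accepted in each replicate, a rule added after the data had been seen, 7 members qualified (DKK2, GSK3B, LRP5, ROR1, TCF7L1, TNIK and WNT5B), beside 11.2% of all protein-coding genes, and genes of like length gave 9.02.

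Over the 4 lists together, 17 of 60 members (28.3%) had at least 1 peak, beside 34.8% of all protein-coding genes and 25.1 members from genes of like length. Their windows held 40 list entries: 3 in R1-Input, 17 in R1-LacZ, 20 in R2-Input and 0 in R2-LacZ. Per Mb of window this was 0.57 in R1-Input, where all protein-coding windows had 3.02. It was 3.23 beside 3.95 in R1-LacZ, 3.8 beside 5.61 in R2-Input, and 0 beside 0.145 in R2-LacZ. As a difference in peaks per Mb, the widest gap between the members and all genes was thus in R1-Input. In R2-LacZ, the shortest list, the members had 0, but their counting interval of 0 to 0.701 per Mb held the 0.145 of all genes. No ratio is therefore read from that list.

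**Figure D2:**
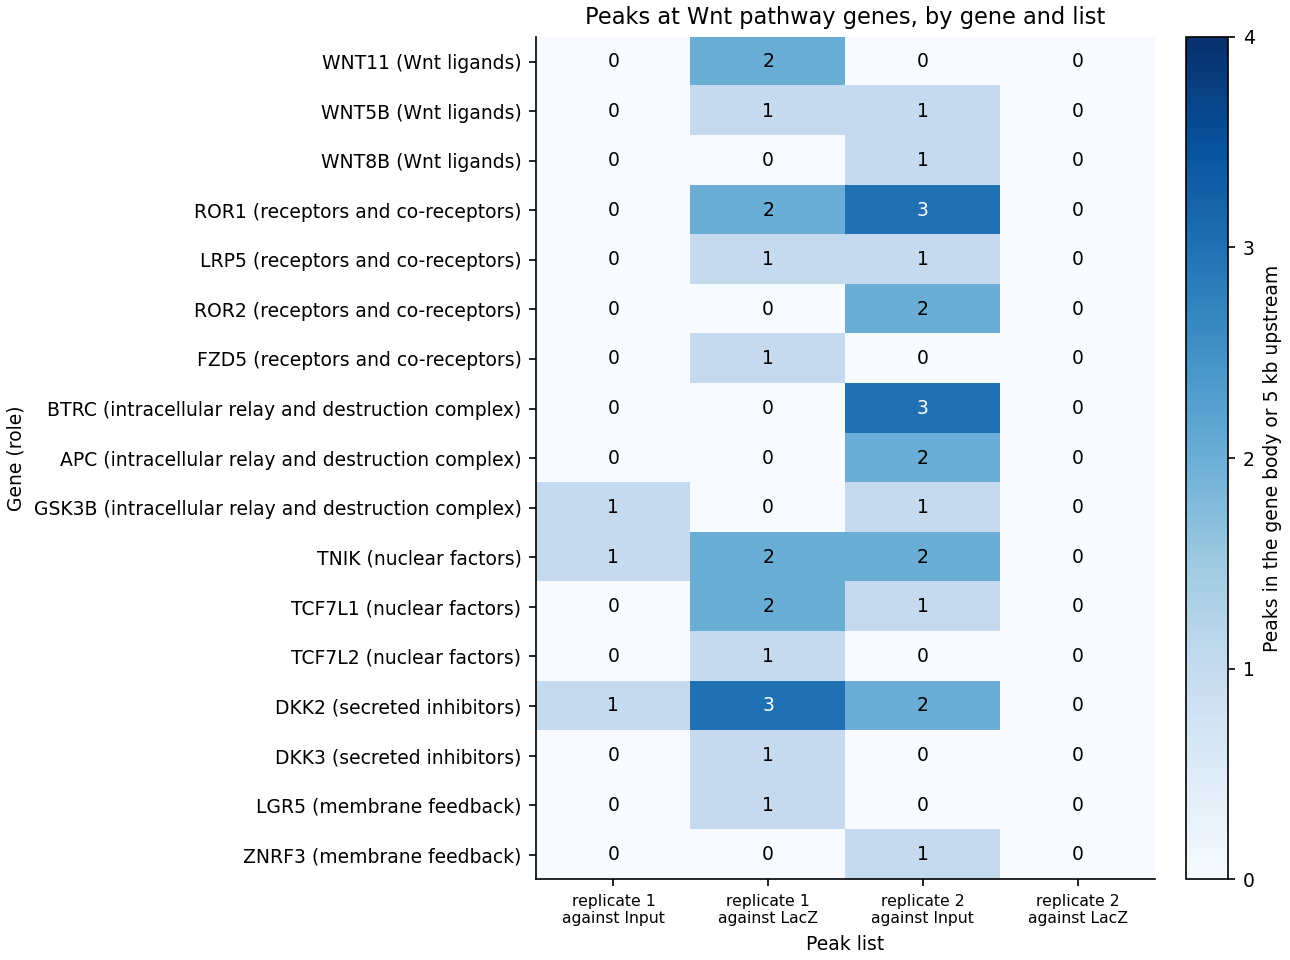
Peaks in the body or the 5 kb upstream of the 17 members with any peak (rows, grouped by role) in each of the 4 lists (columns), with the number written in each cell. DKK2 has 6 entries, TNIK and ROR1 have 5 each, GSK3B has 1 in each Input list, and the column of R2-LacZ is 0 throughout.

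Among the 18 ligands, the secreted proteins that start the signal, 3 had a peak (WNT5B, WNT8B and WNT11), and genes of like length gave 5.77. WNT5B, a mainly noncanonical ligand on chromosome 12, had 1 peak in R1-LacZ (chr12:1584010-1584488, score 68.2) and 1 in R2-Input (chr12:1574253-1574695, score 76.3). The latter touched an untranslated exon and lay 183 bp from an annotated transcription start site. The midpoints of both WNT5B peaks lay outside the main transcript of the gene, in the longer annotated body. Both sites also lie within FBXL14, a gene that overlaps WNT5B, so the lists cannot assign them to one of these genes.

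WNT11 had 2 peaks in R1-LacZ and none in the other lists. The stronger, chr11:76211181-76211951, had a score of 105 and rank 170 of 10310, and its midpoint lay 830 bp upstream of the gene within the lncRNA LINC02761. The other, chr11:76194053-76194446 in intron 3, had a score of 51.5, close to the floor of 50. WNT8B had 1 peak with a score of 50.2 in R2-Input. The other 15 ligands, with WNT3A and WNT1 among them, had no peak in any list.

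Of the 15 receptors and co-receptors, 4 had a peak (FZD5, LRP5, ROR1 and ROR2), where genes of like length gave 5.77. ROR1, a receptor tyrosine kinase that binds WNT5A, had no peak in R1-Input, 2 in R1-LacZ (scores 75.4 and 59.3) and 3 in R2-Input (62.4, 60.9 and 59.0). All 5 were intronic, in introns 1, 2 and 4 of 8, and ROR1 has the longest window of all members at 412 kb. Its relative ROR2, with a window of 392 kb, had 2 peaks in R2-Input (scores 57.7 and 71.9) and none elsewhere.

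LRP5, a co-receptor of Frizzled, had 1 peak in intron 17 of 22 in R1-LacZ (chr11:68432568-68432902, score 51.6) and 1 in intron 7 in R2-Input (chr11:68400602-68400929, score 72.0). FZD5, a Frizzled receptor, was counted for a peak in R1-LacZ (chr2:207774766-207775064, score 76.9) whose near edge lay 4860 bp upstream, so that 141 bp of it were inside the 5 kb limit. LRP6, the other 9 Frizzled genes, and RYK with a window of 191 kb, had no peak.

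Of the 13 genes of the intracellular relay and the destruction complex, 3 had a peak (APC, GSK3B and BTRC), where genes of like length gave 5.26. None of the 13 had a peak in R1-LacZ, where genes of like length gave 3.08. GSK3B is also one of the genes that the study singled out from these libraries, so its calls are no independent support for it. It had 1 peak in R1-Input, in intron 1 of 10 with a score of 51.0, and 1 in R2-Input with a score of 116 and rank 108 of 16777, the highest rank of any member peak. The midpoint of the latter lay in an exon outside coding and untranslated annotation and within the lncRNA ENSG00000288662. Without annotation of strand in the lists, these transcripts cannot be told apart.

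APC had 2 peaks, both in R2-Input: chr5:112714307-112714624 with a score of 58.0, and another in intron 4 of 15 with a score of 90.6 and rank 543. BTRC had 3 peaks in the same list, in introns 1, 6 and 13 of 14, with scores of 52.4, 75.2 and 58.9. Neither gene had a peak in replicate 1. CTNNB1, which encodes beta-catenin itself, AXIN1 and AXIN2, the scaffolds of the complex, and DVL1, DVL2 and DVL3 had no peak in any list. For CTNNB1, 20.5%, 25%, 26.5% and 1.5% of genes of like length had a peak in the 4 lists, in the order given above, so a lack of peaks was the usual outcome for a gene of its length. The nearest call to it among upstream sequence was in R2-Input, 9882 bp from the gene start and thus outside the limit.

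Of the 5 nuclear factors, 3 had a peak (TCF7L1, TCF7L2 and TNIK), and genes of like length gave 3.68. TNIK had peaks in 3 of the 4 lists: 1 in R1-Input (chr3:171396009-171396402, score 51.2), 2 in R1-LacZ (scores 50.5 and 51.5) and 2 in R2-Input (chr3:171084406-171084683, score 60.6, and chr3:171174399-171174796, score 65.5). The 3 entries of replicate 1 were within 2 points of the score floor. Of genes of like length, 72.5%, 72.5% and 89.5% had a peak in these lists, so peaks were common in genes of this size.

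TCF7L1, a TCF that mainly represses its targets, had 2 peaks in intron 4 in R1-LacZ (scores 70.7 and 52.0) and 1 in intron 3 in R2-Input (54.3). TCF7L2, the main TCF partner of beta-catenin in intestinal cells, had 1 peak in R1-LacZ (chr10:112952342-112953170, score 75.8), with its midpoint 2509 bp downstream of the gene start. A further peak of that list lay 5378 bp upstream of TCF7L2 and was outside the limit. TCF7 and LEF1 had none.

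Of the 6 secreted inhibitors, DKK2 and DKK3 had a peak, where genes of like length gave 2.52. DKK2 had the most entries of any member: 1 in R1-Input, 3 in R1-LacZ (scores 67.8, 63.0 and 54.0) and 2 in R2-Input (67.1 and 52.7). Only the R1-LacZ site with a score of 67.8 lay within the main transcript, in its intron 1. The other sites, with all those against Input, lay in the part of the annotated body outside the main transcript. Its site chr4:107140274-107140531 was called with the same borders against Input (score 60.2) and against LacZ (63.0) in replicate 1. DKK2 has a window of 367 kb, and of genes of like length 69.5%, 73.5% and 87% had a peak in these 3 lists. DKK3, a divergent member of the family, had 1 intronic peak in R1-LacZ (score 62.9). DKK1, SFRP1, SFRP2 and WIF1, which bind Wnt ligands or their receptors, had no peak.

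In the membrane feedback group, LGR5 and ZNRF3 had a peak and RNF43 did not, where genes of like length gave 2.08 of 3. LGR5, the R-spondin receptor that marks stem cells of the crypt, had 1 peak in intron 1 in R1-LacZ (chr12:71492019-71492481, score 50.9). ZNRF3, a ubiquitin ligase that removes Frizzled from the membrane, had 1 in intron 2 in R2-Input (chr22:29022780-29023162, score 50.6). Both scores were near the floor. Over the 4 lists, the count of each of the 6 role groups was below the number from genes of like length, by less than 1 gene for the nuclear factors, the secreted inhibitors and the membrane feedback group. Within R1-LacZ, a pair of groups were above it: the nuclear factors with 3 against 2.31 and the secreted inhibitors with 2 against 1.52.

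Most of the member peaks were intronic. By midpoint, 37 of 40 entries lay in introns (3 of 3 in R1-Input, 15 of 17 in R1-LacZ and 19 of 20 in R2-Input), 2 lay upstream (WNT11 and FZD5), 1 lay in the noncoding exon at GSK3B, and 0 lay in coding sequence or an untranslated region. For the 64 other genes of the pathway, 12 of 12, 25 of 29 and 25 of 30 peaks of these lists were intronic. The share over all protein-coding windows was not counted, so these counts are no trait of the members. RefSeq promoters, from 250 bases before to 50 after the gene start on GRCh38, were available for 44 members, and 0 of them overlapped a peak of any list. The share of all RefSeq promoters with a peak was not counted, so this result cannot be set against other genes.

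**Figure D3:**
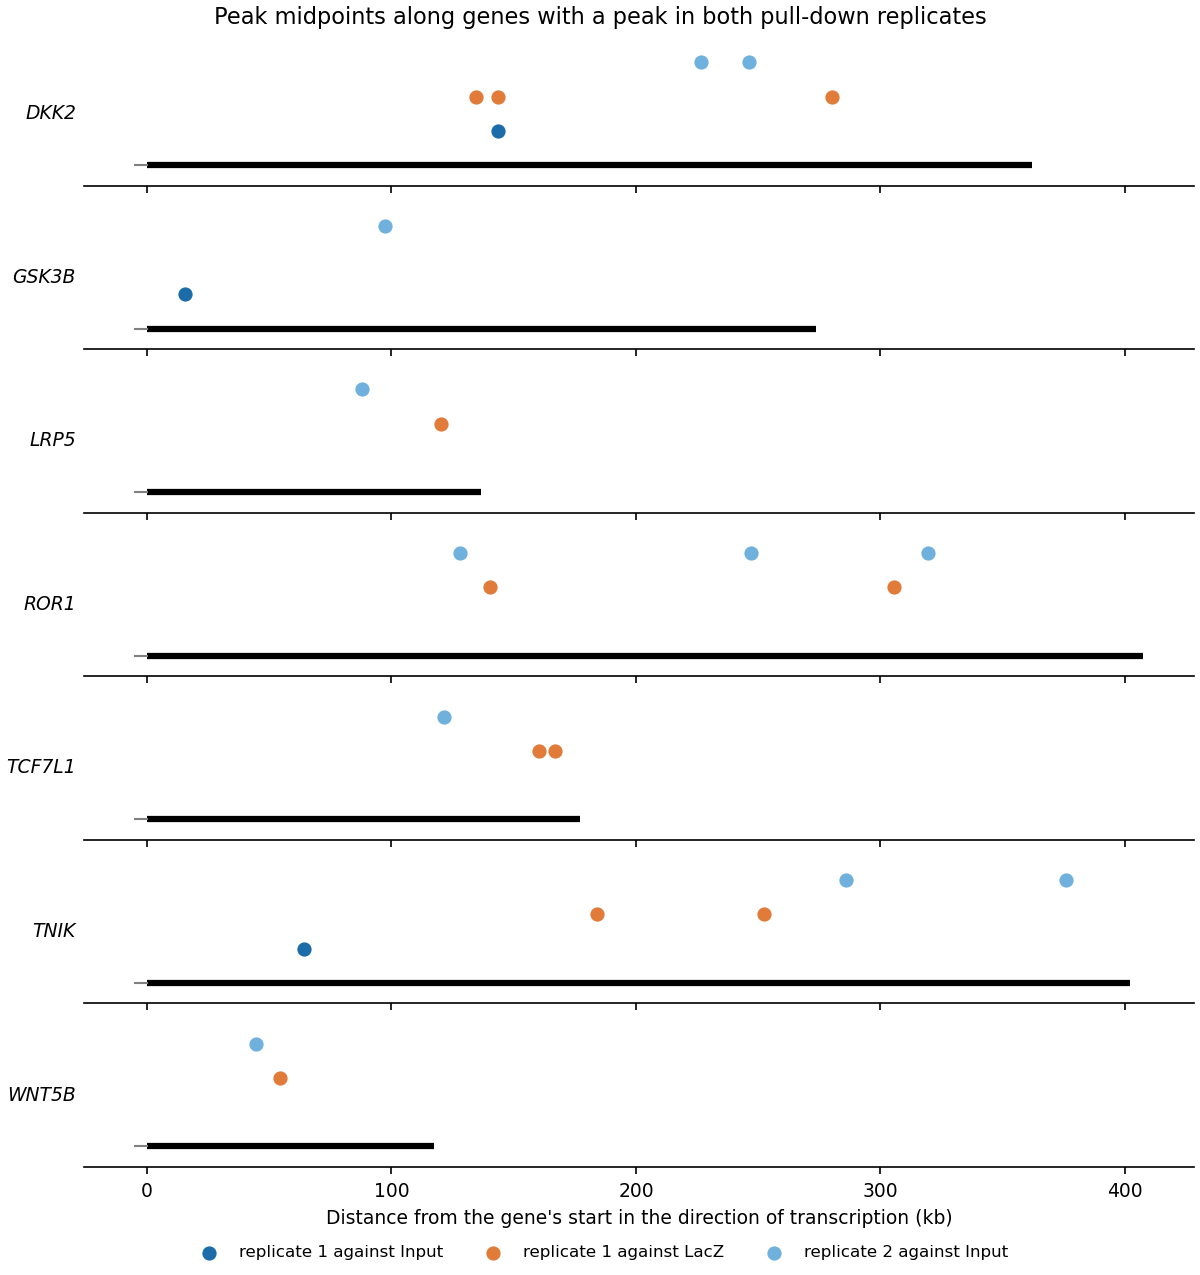
Midpoints of peaks (points, coloured by list) along the 7 members with a peak in both replicates under either control, as the distance in kb from the start of each gene (horizontal axis); the black bar is the gene body and the thin line the 5 kb upstream. No point of replicate 2 (light blue) stands over a point of replicate 1 (dark blue or orange), and the smallest gap is 9.31 kb, in WNT5B.

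A gene can be called in both replicates through different sites, so the sites themselves were compared. Of the 3 member peaks in R1-Input and the 20 in R2-Input, 0 overlapped a peak of the other replicate and 0 lay within 10 kb of one. Over all protein-coding windows, 0.917% and 0.494% of peaks overlapped, and 13.8% and 7.97% lay within 10 kb, in the same order. The GSK3B sites of the replicates were 81479 bp apart, and the nearest pair of DKK2 sites against Input was 82967 bp apart. With peaks against either control, the smallest gap between replicates was 9.31 kb in WNT5B and 11.6 kb in ROR1, and it ran from 31.6 to 81.5 kb in the other 5 genes. The replicates therefore marked the same 3 genes against Input, but at separate positions within them.

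The controls were compared within replicate 1, where both lists are long. Of the 3 member peaks called against Input 1 was also called against LacZ, and of the 17 called against LacZ 1 was also called against Input. That was the DKK2 site in both cases. Over all protein-coding windows these shares were 51.7% and 39.6%. Of the peaks in R1-LacZ, those also called against Input had a median GC content of 38.3%, and those called against LacZ alone had 44.8%. In replicate 2, 0 of the 20 member peaks against Input were called against LacZ, beside 2.46% over all protein-coding windows.

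Scores can be compared only within a list. The 3 member peaks of R1-Input scored from 51.0 to 60.2, and 0 of them were in the top 10% of the list. Those of R1-LacZ ran from 50.5 to 105 and those of R2-Input from 50.2 to 116. The median score of member peaks was 51.2 in R1-Input (list median 56.1), 62.9 in R1-LacZ (58) and 60.7 in R2-Input (57.7). At or above the list median were 1 of 3, 10 of 17 and 15 of 20 member peaks. The median splits a list about evenly, and 10 of 17 is close to such a split. For the 64 other genes of the pathway, 6 of 12, 12 of 29 and 11 of 30 peaks were at or above it in these lists. These differences were not tested.

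Members with a peak were the longer genes. The window, which is the body plus 5 kb, had a median of 52.6 kb over all members (32.5 kb over all protein-coding genes), 179 kb over the 17 members with a peak and 32.4 kb over the 43 without. Of 16 members over 100 kb, 13 had a peak in some list (81.2%, beside 80.4% of other protein-coding genes of that class). The 3 without were LRP6, LEF1 and RYK. Of 25 members from 25 to 100 kb 3 had a peak (12%, beside 38.8%), and of 19 members under 25 kb 1 had a peak, FZD5 (5.26%, beside 10.2%). For the long members the lists differed: 3 of 16 had a peak in R1-Input (18.8%, beside 44.5%), 8 of 16 in R1-LacZ (50%, beside 52.4%) and 11 of 16 in R2-Input (68.8%, beside 62.4%).

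**Figure D4:**
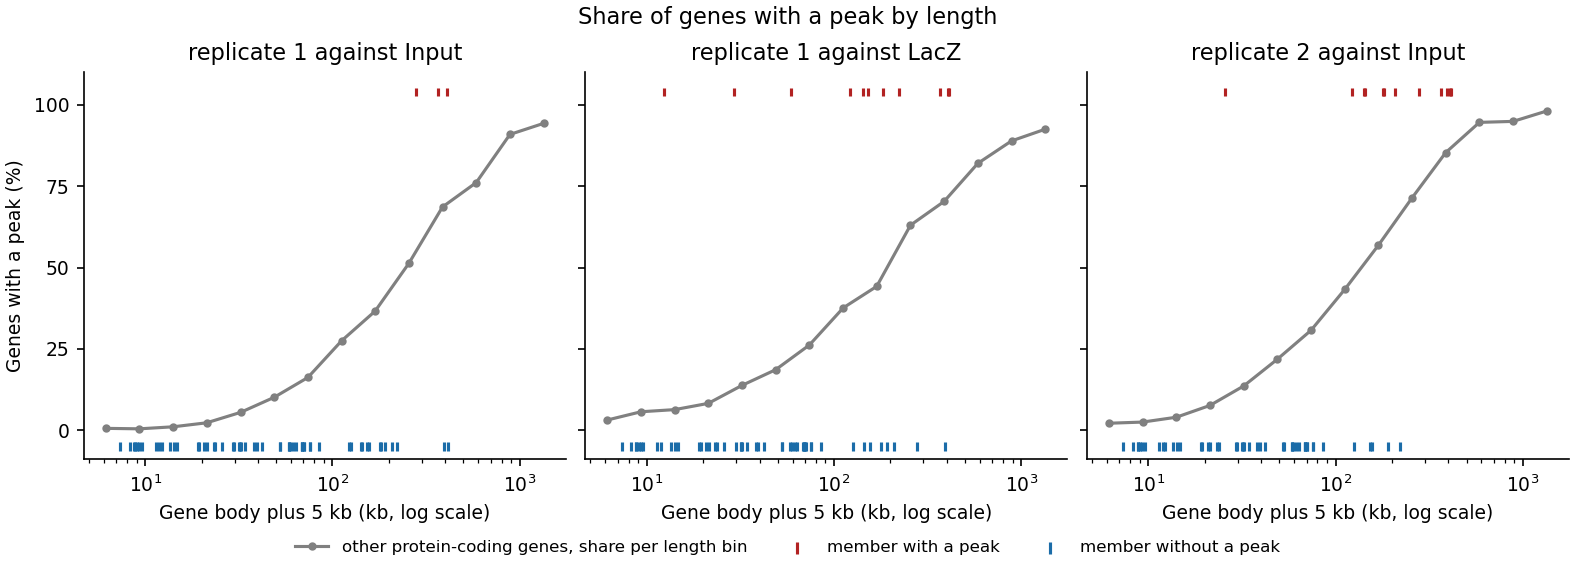
Share of other protein-coding genes with a peak (grey line, percent, vertical axis) by length of body plus 5 kb (kb, log scale), for 3 lists. Ticks at the top mark members with a peak and ticks at the bottom those without; in R1-Input the 3 members with a peak are all longer than 200 kb, and the grey line climbs from the shortest to the longest genes in all 3 panels.

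The GC content of the window moved with the calls as well. All protein-coding genes were split by GC content into 4 groups of about equal size, without allowance for length. Genes that are no members in the lowest group (29 to 40.1%) had a peak in 31%, 29.3%, 39.3% and 1.88% of cases in the 4 lists, and those in the highest group (51.3 to 71.2%) in 0.562%, 10.4%, 7.39% and 0.241%. Members had a median GC content of 47.7%, above the 44.8% of all protein-coding genes, and 27 of 60 were in the highest group. The 17 members with a peak had a median of 44.6%, and the 43 without had 52%. All 3 members with a peak in R1-Input (GSK3B, TNIK and DKK2) were among the 13 in the lowest group.

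When each member was set against protein-coding genes within 2 percentage points of its GC content and, among these, the up to 200 nearest in length, the numbers were 8.8, 14.3, 15.8 and 0.605 in the 4 lists. The smallest such pool held 90 genes. The observed counts of 3, 11, 12 and 0 remained below them, with ratios of 0.341, 0.771 and 0.761 in the first 3 lists. In both replicates against Input the number was 5.94, where 3 were found. This comparison was added after the data had been seen. Adding GC content thus moved the number for R1-Input from 10.4 to 8.8.

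**Figure D5:**
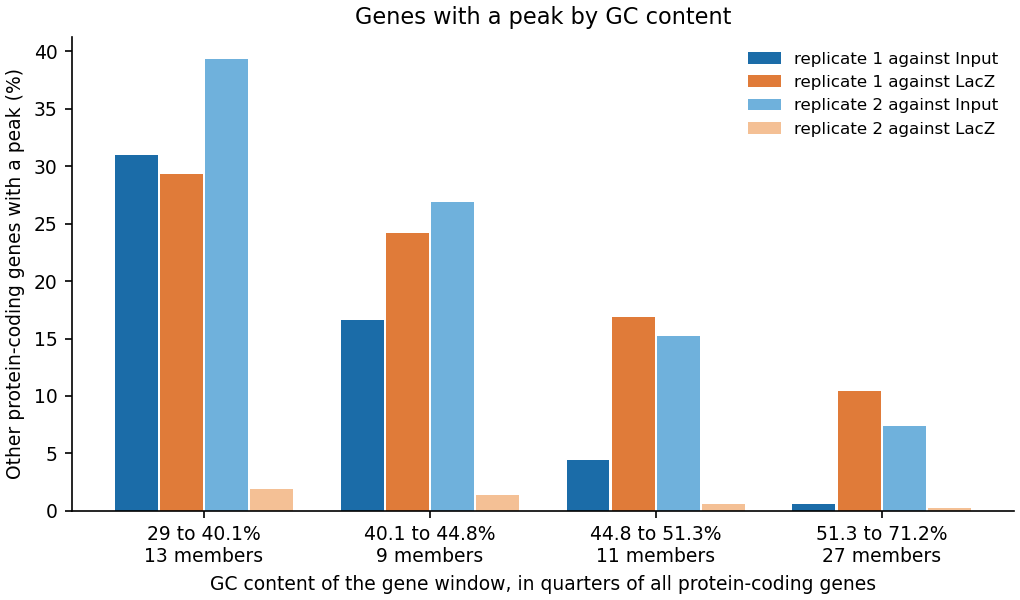
Share of other protein-coding genes with a peak (percent, vertical axis) in 4 groups by the GC content of the gene window (horizontal axis, with the number of members in each), one colour per list. In all 4 lists the share falls from the lowest to the highest group, as from 31 to 0.562% in R1-Input, and 27 members are in the highest group. The groups are not matched on length, so differences in length can be mixed into this fall.

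The peaks were then searched for letters that the choice of genes did not use. In the central 300 bp of each peak and on both strands, CTTTGAT was found in 1 of 3, 2 of 17 and 1 of 20 member peaks of the 3 lists, and in 5.66%, 4.64% and 5.6% of all peaks of these lists. These entries were the DKK2 site, counted once against each control, and 2 TNIK sites, so they come from 3 sites in 2 genes. The C-rich motif CCCTCCC was found in 0 of 3, 3 of 17 and 1 of 20 member peaks, beside 4.19%, 5.97% and 4.74% of all peaks, at WNT11, LRP5, TCF7L2 and ZNRF3. A match of either motif describes the letters only.

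The sequences were also compared with the 9 capture probes by blastn. No member peak matched a probe, and in the whole lists 3, 2, 1 and 2 peaks did. When the exons of LINC01767 were searched together with the probes, 0 of 3, 2 of 17 and 4 of 20 member peaks (20%) held a match in R1-Input, R1-LacZ and R2-Input. All peaks of these lists did so in 8.64%, 13.2% and 9.75% of cases. The exons formed 1 merged block of 2220 bases, longer than the RNA that the paper describes. All member matches fell between positions 56417018 and 56417095 of chromosome 1, with 78 to 93.3% identity. Some member peaks thus shared letters with this short stretch of the LINC01767 annotation. Whether the stretch is part of the RNA as the paper describes it was not tested. The difference from the whole lists was not tested either.

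The same counts were made for 64 other genes of the pathway. This list mixes agonists, inhibitors, scaffolds, coactivators, corepressors, planar polarity genes and targets. In the 4 lists 10, 19, 20 and 1 of them had a peak, where genes of like length gave 11.1, 16.3, 17.9 and 0.73, and genes of like length and GC content gave 9.68, 15.8, 17.4 and 0.68. Their windows held 2.29, 5.53, 5.72 and 0.191 peaks per Mb. In both replicates against Input 9 of 64 had a peak, where genes of like length gave 6.28. They were CD44, a Wnt target and adhesion receptor, the coactivator CREBBP, the kinase CSNK1G1, the formin DAAM1, LGR4 (an R-spondin receptor), the planar polarity protein PRICKLE1, the R-spondins RSPO2 and RSPO3, and TBL1XR1, a corepressor subunit. CSNK1G1 was also the one gene of both lists called against LacZ in both replicates, through separate sites 8030 bp apart. In the 4 single lists the counts of the other genes were between 0.9 and 1.37 times the number from genes of like length. The ratio was 1.43 for both replicates against Input and 2.44, from 1 gene against 0.41, for both replicates against LacZ. The counts of the 60 members were below the number from genes of like length in all 6 of these comparisons with all peaks counted. These comparisons share lists and libraries, so they are not independent. With 0.85 from genes of like length in R2-LacZ and 0.425 in both replicates against LacZ, only a count of 0 could be below. In R1-Input alone the share from genes of like length lay outside the counting interval of the members. The difference between the members and the other genes was not tested.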

How the data were processed

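ChIRP-seq, which sequences the DNA that comes down with a captured RNA, was carried out in HCT116 cells, with 2 libraries each of CRLM1_IP, Input and LacZ, grouped by the sample labels. Per the labels and the methods of the study, the authors trimmed reads with cutadapt, aligned them to GRCh38 with Bowtie2 and called peaks with MACS. The deposited lists are separate for each replicate. The deposited lists hold peak positions with a score from the caller, of unstated scale and with a lowest value of 50. According to the methods MACS2 was used with a q-value limit, but the layout of the lists is that of an earlier release of MACS, so the version and limit behind them were not settled. The study also removed peaks overlapping LacZ signal, a step not applied here. The number of columns of per-sample values left unused was 0.

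Peaks on chromosomes 1 to 22, X and Y were intersected with gene bodies and 5 kb upstream (GENCODE release 44, minimum overlap 1 bp), with Python 3.11.15, pandas 2.3.3, numpy 2.4.6 and pysam 0.24.0. The number from genes of like length is the sum, over members, of the share of the 200 nearest non-member protein-coding genes in log window length that had a peak. Peak sequences were compared with the capture probes and the exons of LINC01767 by blastn 2.17.0 (word size 11, E value 0.01). Some sequences are not reported here. The counting was tested on simulated data. The 60 members, their role groups and the list of 64 other genes were chosen with earlier results of these data known. Named by rule were members with peaks in both replicates against a control, those with the most peaks, with a score in the top 10%, with upstream or exonic peaks, and CTNNB1, APC, AXIN2, GSK3B, TCF7L2, LGR5, RNF43 and TNIK; other members were named after their values were seen. Alternatives covered the score threshold, the window, the overlap and the choice of comparable genes. Depth is unknown, and intervals cover counting error only.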

Additional observations from a re-analysis of the deposited data

How the results depend on the processing

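Of 153 values recomputed under other settings, 134 stayed within their interval or within 1.5 times the count and 19 moved. Among the 134 are the values for replicate 2 against LacZ and for both replicates against LacZ, which were 0 under every setting. The numbers of member sites shared between replicates were also 0 throughout. The total of 134 is therefore no measure of how stable the other values are. Of the ratios to genes of like length, 3 went from below 1 to above it, all with the strongest 25% of peaks: replicate 1 against LacZ (0.76 to 1.62), replicate 2 against Input (0.724 to 1.17) and either replicate against LacZ (0.738 to 1.54). With peaks at or above the median score, 1 member had a peak in replicate 1 against Input and 1 in both replicates against Input. With the strongest 25% of peaks, 0 members remained in replicate 1 against Input (ratio to genes of like length 0) and 0 in both replicates against Input (ratio 0), and 7 had a peak in each of replicate 1 against LacZ, replicate 2 against Input, either replicate against Input and either replicate against LacZ. With either control accepted in each replicate, chosen after seeing the data, both replicates had a peak in 7 members. Leaving out each replicate in turn, the count in either replicate against Input ranged from 3 (without replicate 2) to 12 and its ratio from 0.288 to 0.724, and that against LacZ from 0 (without replicate 1) to 11 and its ratio from 0 to 0.76. Within 1 kb upstream, 1 member peak of replicate 1 against LacZ was left. The gene body alone, 10 kb upstream, midpoints, 100 or 500 nearest genes, all GENCODE genes and no allowance for length moved none of these counts or ratios past those limits. Within them, 10 kb upstream raised the count in replicate 2 against Input from 12 to 16 and its ratio from 0.724 to 0.916. The added members were WNT4, CTNNB1, CSNK1A1 and FZD6. The ratios of replicate 1 fell from 0.288 to 0.277 against Input and from 0.76 to 0.709 against LacZ. Why the values moved was not tested. No paired analysis was possible because each replicate number gives a single peak list per control and no test was made. The lists against Input and LacZ share a pull-down library, LacZ in replicate 2 gave 363 peaks, and without read counts a missing peak does not show that a gene lacks CRLM1.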
